A study of Mus musculus with 6 samples.

Results

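The genes described here encode the nuclear pore complex and the receptors that carry cargo through it, measured in mouse mammary carcinoma cells of the line 4T1 that were treated with TKI258, a kinase inhibitor, or left with vehicle. They were chosen by name: symbols that begin with Nup and a number, with Kpna or Kpnb (importins alpha and beta), with Ipo (importins), with Xpo (exportins) or with Tnpo (transportins), each read by its brightest probe set with a single gene symbol. This gave 43 genes of 19938 measured. The naming rule itself used no measured change, but the families were chosen with earlier results of these data known. RefSeq lists Nup35, Kpna2-ps and Ipo11-lrrc70 under the same naming rule, and these had no such probe set and were not analysed here.

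There were 6 Affymetrix arrays, 3 from dishes given the vehicle DMSO and 3 from dishes given 500 nM TKI258, each dish treated for 16 h. All dishes were of the 4T1 line, seeded at 750000 cells per 10 cm dish in medium with 10% serum and grown for 24 h before the treatment, so the replicates are separate dishes of 1 line and not separate tumours. TKI258, also called dovitinib, blocks receptor tyrosine kinases, among them those for FGF, PDGF and VEGF. The comparison addresses how transcript levels differ between dishes given TKI258 and dishes given DMSO, with serum present in both groups. Inhibition of the receptors was not measured here.

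Nuclear pores are channels in the nuclear envelope, built of scaffold rings that anchor nucleoporins with phenylalanine-glycine (FG) repeats, and these repeats fill the channel and bar large molecules. Transport receptors of the importin beta family bind the FG repeats and pass with their cargo: importins load in the cytoplasm and exportins in the nucleus. The direction is set by the small GTPase Ran, which is in its GTP form in the nucleus. Dividing cells rebuild their pores after mitosis and add new ones as the nucleus grows, and fast-growing cells import ribosomal proteins and histones in large amounts.

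Promoter sequences were at hand in RefSeq (build GRCm38.p6) for 35 of the 43 genes, and the 250 bases before the transcription start are shown for 6 of them. Nup107 and Nup37 encode Y complex scaffold proteins, and Nup188 an inner ring protein. Nup54 encodes a channel protein, Kpnb1 is importin beta itself, and Ipo13 is the gene that went the other way. Each is printed 5′ to 3′ on the strand of its gene, with capitals for matches to 4 short motifs on either strand: CACGTG, the E-box that MYC and MAX bind; CCGGAAG, bound by ETS factors; GGCGGGA, an E2F-type site; and CCAAT, bound by NF-Y. None of these motifs contains another. The windows are chr10:117792706-117792955 on the minus strand, chr10:88146742-88146991 on the plus strand, chr2:30286166-30286415 on the plus strand, chr5:92435200-92435449 on the minus strand, chr11:97187893-97188142 on the minus strand and chr4:117915000-117915249 on the minus strand, in the order of the lines that follow.
Nup107: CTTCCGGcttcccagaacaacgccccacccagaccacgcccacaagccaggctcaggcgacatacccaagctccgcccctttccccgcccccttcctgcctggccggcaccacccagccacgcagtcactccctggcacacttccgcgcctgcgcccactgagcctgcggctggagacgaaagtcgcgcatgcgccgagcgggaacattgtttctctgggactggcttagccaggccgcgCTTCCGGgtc
Nup37: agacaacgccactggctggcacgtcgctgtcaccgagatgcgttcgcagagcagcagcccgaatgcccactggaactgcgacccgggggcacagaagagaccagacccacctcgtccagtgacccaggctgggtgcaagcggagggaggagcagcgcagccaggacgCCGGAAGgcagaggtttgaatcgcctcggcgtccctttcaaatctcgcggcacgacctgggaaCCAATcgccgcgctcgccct
Nup188: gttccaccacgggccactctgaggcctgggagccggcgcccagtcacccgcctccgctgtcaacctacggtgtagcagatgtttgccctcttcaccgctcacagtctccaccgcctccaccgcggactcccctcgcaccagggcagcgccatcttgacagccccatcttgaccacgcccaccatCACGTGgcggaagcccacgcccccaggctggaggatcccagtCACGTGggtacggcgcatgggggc
Nup54: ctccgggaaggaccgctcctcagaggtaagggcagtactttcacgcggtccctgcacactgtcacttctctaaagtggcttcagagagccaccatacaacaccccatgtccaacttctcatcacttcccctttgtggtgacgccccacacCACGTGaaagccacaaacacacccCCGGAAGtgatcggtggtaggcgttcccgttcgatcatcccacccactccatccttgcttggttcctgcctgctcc
Kpnb1: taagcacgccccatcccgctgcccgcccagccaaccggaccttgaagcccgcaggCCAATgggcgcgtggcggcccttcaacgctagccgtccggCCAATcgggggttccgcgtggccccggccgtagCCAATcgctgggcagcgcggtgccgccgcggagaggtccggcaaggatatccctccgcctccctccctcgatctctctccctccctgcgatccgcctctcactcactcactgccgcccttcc
Ipo13: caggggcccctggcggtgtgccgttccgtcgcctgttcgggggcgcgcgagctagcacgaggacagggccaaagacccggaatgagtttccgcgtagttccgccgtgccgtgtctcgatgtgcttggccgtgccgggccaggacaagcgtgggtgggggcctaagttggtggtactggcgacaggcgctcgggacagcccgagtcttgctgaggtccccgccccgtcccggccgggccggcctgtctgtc

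In the Nup107 stretch the ETS letters stand at its 5′ end and again 10 bases before the start, read on the opposite strand as CTTCCGG. Nup37 has a further window, chr10:88146821-88147070, which is not printed and holds 2 ETS matches and 1 CCAAT. Nup188 holds the E-box 66 and 24 bases before its start, Nup54 holds 1 E-box and 1 ETS match, and Kpnb1 holds CCAAT 3 times. The Ipo13 stretch has no match to any of the 4. The windows of Nup133, Nup153, Nup160, Nup205, Tnpo1 and Xpo5, which all fell, have none either. Tnpo2, the other member with a change above 0, holds the E-box 2 times. Over the 35 genes, counting a gene if any of its windows matched, 17.1% held the E-box, against 6.86% of 27025 genes in the promoter table. The ETS letters were in 17.1% against 7.83%, the E2F-type letters in 11.4% against 11.0%, and CCAAT in 54.3% against 37.5%. Members' windows were richer in G and C, with a median of 63.2% against 52.4% for all genes. The part of this difference in the motif shares was not tested. A match is a description of these windows only.

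After TKI258 most of these genes were lower. Of the 43, 30 fell, 1 rose and 12 did not pass at an adjusted p of 0.05 in limma, a linear model with variances moderated over all genes, with Benjamini-Hochberg adjustment over all 19938 genes. In the background of all genes 12.6% fell and 14.4% rose. Log2 changes are TKI258 minus DMSO, and their median was -0.39 for the members, which is 76.2% of the DMSO level, against 0.01 for all genes. Of the 43 changes, 41 were below 0. The members' falls were moderate, from 0.23 to 0.79 on the log2 scale, and 11 members reached -0.5 or lower, which 4.64% of all genes did. All 3 TKI258 arrays lay below all 3 DMSO arrays for 35 members, against 18.8% of all genes, and above them for 1, against 21.4%. Most members are bright: 39 had a mean above 8 log2 units, a level set after the values were seen, and of these 29 fell. Bright genes passed more often in general, and 28.4% of the 5256 genes with a mean from there up to the brightest member fell.

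**Figure D1:**
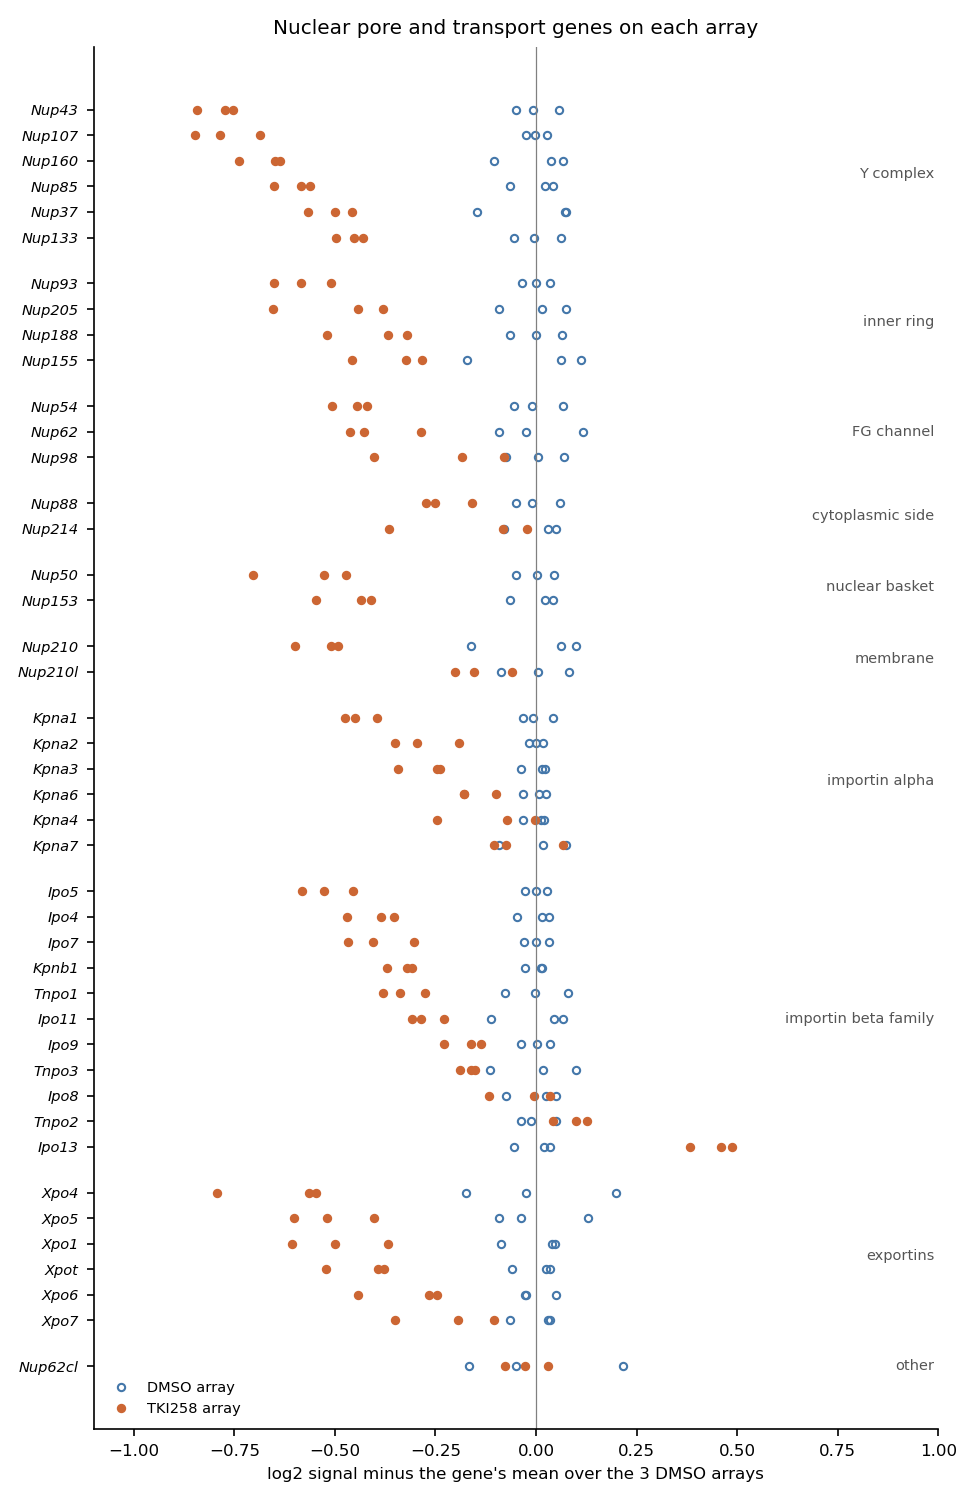
Log2 signal of each gene on each array, minus that gene's mean over the 3 DMSO arrays, with open blue circles for DMSO and filled orange circles for TKI258. Genes are grouped by role; in 35 of the 43 the TKI258 arrays all lie to the left of the DMSO arrays, and Ipo13 alone has them all to the right.

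The array values of 1 group lay close together. Within-group standard deviations had a median over members of 0.06 log2 units for DMSO and 0.07 for TKI258. The median deviation of the 43 genes from their group mean was 0.03, 0.02 and -0.03 on DMSO replicates 1 to 3 and 0.01, 0.03 and -0.02 on TKI258 replicates 1 to 3. Replicate 3 held the lowest value of its group in 24 members under DMSO and in 22 under TKI258, so both of these arrays sat slightly low for these genes. Over all genes the correlation was 0.997 to 0.998 within groups and 0.988 to 0.990 between them, and array medians over all probe sets were 4.97 to 5.04. Epithelial markers had a mean level of 8.24 to 8.31 on DMSO arrays and 8.52 to 8.58 on TKI258 arrays, and 5 of 10 rose and 2 fell. Macrophage markers lay at 4.43 to 4.45 and 4.58 to 4.72, with 2 of 7 higher (Cd68 and Cd14). The other 5 did not pass, with changes of -0.09 to 0.14. Fibroblast markers lay at 5.24 to 5.34 and 5.81 to 5.87, with 2 of 7 higher (Dcn and Pdgfra). The other 5 did not pass, with changes of -0.05 to 0.18, and 4 of the 7 were higher in limma at an unadjusted p of 0.05. The rises of both list means thus came mainly from the named genes. Of 6 lymphocyte and 6 endothelial markers 0 passed in limma, also at an unadjusted p of 0.05, at mean levels of 3.75 to 3.90 and 3.81 to 3.96. The part of these marker shifts in the members' changes was not tested. The values are from whole dishes, where fewer cells of a kind and less RNA per cell cannot be told apart.

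The Y complex is the main scaffold of the outer rings, and the naming rule covers part of it. All 6 of its genes among the members fell, with a median log2 change of -0.64. Of its genes outside the rule, Sec13 and Seh1l did not pass in limma, at -0.17 and -0.16 (adjusted p = 0.153 and 0.0994). Ahctf1, also outside the rule, fell, at -0.38 (adjusted p = 0.00887). Nup43 read 9.52, 9.41 and 9.46 log2 units on the DMSO arrays and 8.69, 8.62 and 8.71 on the TKI258 arrays. The groups were separated by 0.70, the change was -0.79 (SE 0.06, adjusted p = 3.09e-05), and the TKI258 level was 57.8% of the DMSO level. It was the lowest change of all 43 members, at place 292 from the lowest among all genes. Nup107, which sits in the stem of the Y, read 9.84, 9.82 and 9.87 under DMSO and 9.00, 9.06 and 9.16 under TKI258. That is a change of -0.77 (SE 0.07, adjusted p = 4.19e-05), again with no overlap and with very little spread among the DMSO arrays.

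The other 4 Y complex members had changes of -0.67 to -0.46, and the 95% intervals of neighbours in this order overlapped. Nup160 changed by -0.67 (SE 0.07), from 10.17 ± 0.09 (SD, n = 3) to 9.49 ± 0.06. Nup85 changed by -0.60, from 9.22 ± 0.06 to 8.63 ± 0.05. Nup37, at the tip of an arm, had DMSO values of 8.14, 8.36 and 8.35 and TKI258 values of 7.78, 7.71 and 7.82, a change of -0.51 in which DMSO replicate 1 lay nearest to the treated arrays. Nup133, at the foot of the stem, had the smallest change of the 6, -0.46 (SE 0.06, adjusted p = 0.00061), from 10.01 ± 0.06 to 9.55 ± 0.03. Its 95% interval was -0.60 to -0.32, and that of Nup43 was -0.94 to -0.64. These are the genes with the smallest and the largest change of the 6, picked after ordering them, and the difference between them was not tested.

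All 4 measured inner ring genes fell, with a median log2 change of -0.45. Nup93, which links the inner ring to the channel proteins, read 9.85, 9.78 and 9.82 under DMSO and 9.17, 9.23 and 9.31 under TKI258, a change of -0.58 (SE 0.07, adjusted p = 0.000183). Nup205, a large scaffold protein, read 10.14, 10.08 and 9.98 under DMSO and 9.63, 9.69 and 9.42 under TKI258, a change of -0.49 (SE 0.09, adjusted p = 0.00235). Both sets of arrays were apart, and in Nup205 TKI258 replicate 3 was the lowest by a margin. Nup188, a relative of Nup205, changed by -0.40 (SE 0.07). Nup155 changed by -0.35 (SE 0.09, adjusted p = 0.0162), from 10.02, 9.96 and 9.73 to 9.58, 9.62 and 9.45. Its groups came within 0.11 of each other, and its call failed at adjusted p of 0.0678 and 0.0616 when DMSO replicate 1 or 2 was dropped, and at 0.0529 when TKI258 replicate 3 was. Its adjusted p lay between 0.00187 and 0.0937 over 16 alternatives.

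Of the 3 members that encode FG proteins of the channel, 2 fell. Nup54 read 8.84, 8.88 and 8.96 under DMSO and 8.44, 8.38 and 8.47 under TKI258, a change of -0.46 (SE 0.07, adjusted p = 0.00071). Nup62, its partner in the central channel, read 9.95, 9.88 and 10.09 against 9.51, 9.55 and 9.69, a change of -0.39 (SE 0.08, adjusted p = 0.00541). In both genes every treated array was below every control array. Nup98, an FG protein that also takes part in mRNA export, did not pass, at -0.22 (95% interval -0.43 to -0.02, adjusted p = 0.111). Its values were 9.69, 9.63 and 9.55 under DMSO and 9.54, 9.44 and 9.22 under TKI258, so the arrays only just failed to meet, and without TKI258 replicate 1 its adjusted p was 0.0459.

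Among the members, the pore's nuclear and cytoplasmic faces were each read by a pair of genes. On the nuclear basket both fell: Nup50, which helps importins unload, read 9.72, 9.77 and 9.81 under DMSO and 9.06, 9.24 and 9.30 under TKI258, a change of -0.57 (SE 0.08, adjusted p = 0.000526). Nup153 read 9.58, 9.59 and 9.49 against 9.14, 9.12 and 9.01, a change of -0.46 (SE 0.07, adjusted p = 0.000864). On the cytoplasmic side the changes of both members were smaller, a difference that was not tested. Of genes on this side that the naming rule leaves out, Ranbp2 and Nupl2 did not pass, at -0.11 and -0.08. Gle1, Rae1 and Aaas fell, at -0.30, -0.34 and -0.47. Nup88 read 9.49, 9.52 and 9.59 under DMSO and 9.28, 9.26 and 9.38 under TKI258, and passed at -0.23 (SE 0.07, adjusted p = 0.0304). That call failed when any array but TKI258 replicate 3 was left out. The adjusted p was then 0.0584, 0.0811 and 0.112 for DMSO replicates 1 to 3, and 0.0734 and 0.0956 for TKI258 replicates 1 and 2. Its adjusted p lay between 0.00569 and 0.112 over 16 alternatives. Nup214, the partner of Nup88 and a docking site for exportin complexes, read 8.53, 8.55 and 8.42 against 8.47, 8.41 and 8.13. It did not pass, at -0.16 (95% interval -0.37 to 0.06, adjusted p = 0.295), and its groups overlapped.

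Nup210 encodes a pore membrane protein that anchors the pore in the envelope. It read 6.61, 6.64 and 6.38 under DMSO and 5.94, 6.05 and 6.04 under TKI258, a change of -0.53 (SE 0.08, adjusted p = 0.00119) with no overlap. Its relative Nup210l read 5.54, 5.37 and 5.46 against 5.25, 5.40 and 5.30 and did not pass, at -0.14 (adjusted p = 0.213). Nup210l has 9 probe sets with changes of -0.54 to -0.01 when tested singly, of which 0 passed in limma and 3 did at an unadjusted p of 0.05. With the mean of the 9 in place of the brightest, the adjusted p was 0.0234. Nup62cl, named for its likeness to the Nup62 C terminus, read 2.83, 2.71 and 3.10 under DMSO and 2.85, 2.80 and 2.91 under TKI258. It is dim on every array and its change of -0.03 did not pass (adjusted p = 0.896).

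**Figure D2:**
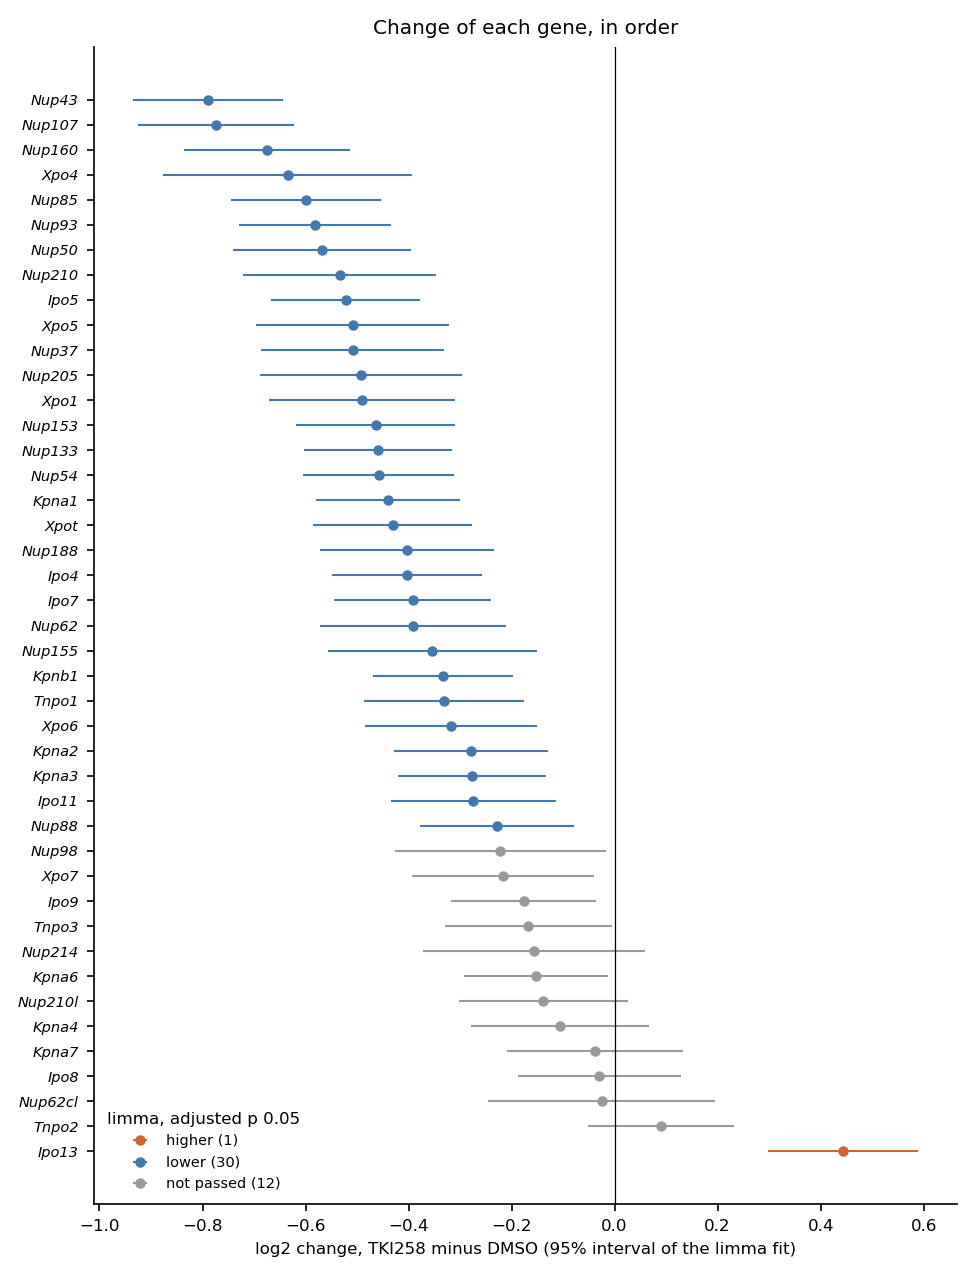
Log2 change of each of the 43 genes in order, with the 95% interval of the limma fit; blue marks 30 genes that fell, orange the 1 that rose and grey the 12 that did not pass. Neighbouring intervals overlap in 41 of 42 steps, and only the last step, from Tnpo2 to Ipo13, is free of overlap.

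Of the 19 nucleoporin members with an assigned place in the pore 16 fell and 0 rose in limma. Their median log2 change was -0.46. At an unadjusted p of 0.05 there were 17 lower and 0 higher, against 3270 lower and 3837 higher of all 19938 genes. Of the 23 receptor genes 14 fell and 1 rose, with a median of -0.28. Receptor changes spanned -0.63 to 0.44, or -0.63 to 0.09 without Ipo13, and nucleoporin changes -0.79 to -0.14. The difference between these medians was not tested.

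Importin alpha proteins are adaptors that hold the classical nuclear localisation signal of a cargo and join it to importin beta. Of 6 genes 3 fell, and all 6 changes were below 0. Kpna1 read 9.29, 9.34 and 9.27 under DMSO and 8.85, 8.91 and 8.83 under TKI258, a change of -0.44 (SE 0.06, adjusted p = 0.000663). Kpna2, the form linked to proliferation in many cell types, read 11.68, 11.71 and 11.70 against 11.35, 11.40 and 11.51, a change of -0.28 (SE 0.07, adjusted p = 0.0117). For Kpna3 the values were 10.04, 10.05 and 9.99 against 9.79, 9.78 and 9.68, a change of -0.28 (SE 0.06, adjusted p = 0.0101). In these 3 genes the control arrays lay within a narrow band and all treated arrays below it.

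Kpna2 was read by 3 probe sets, and the other two gave -0.32 and -0.30 when tested singly, with adjusted p of 0.0145 and 0.0266; the share of probe sets lower by that test was 7.86%. RefSeq lists a pseudogene of Kpna2, and whether probes of these sets read it cannot be told from the table. The remaining importin alpha genes did not pass. Kpna6 read 9.49, 9.53 and 9.55 under DMSO and 9.35, 9.35 and 9.43 under TKI258, a change of -0.15 (95% interval -0.29 to -0.01, adjusted p = 0.106) with no overlap of the groups. Kpna4 read 8.84, 8.90 and 8.89 against 8.63, 8.80 and 8.87, at -0.11 (95% interval -0.28 to 0.07, adjusted p = 0.379), and here TKI258 replicate 3 lay among the controls. Kpna7, known from eggs and early embryos, was dim at 3.89, 4.00 and 4.05 against 3.90, 3.87 and 4.05, with fully overlapping groups and a change of -0.04 (adjusted p = 0.784).

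The importin beta family held both falls and the only rise among the members. Of its 11 import receptor genes 6 fell, 1 rose and 4 did not pass. Kpnb1, importin beta, which carries importin alpha and its cargo, read 11.65, 11.66 and 11.61 under DMSO and 11.32, 11.33 and 11.27 under TKI258. Its change was small and tight, -0.33 (SE 0.06, adjusted p = 0.00277), with the groups 0.28 apart. Ipo5, which imports ribosomal proteins and histones, read 11.45, 11.47 and 11.42 against 10.99, 10.92 and 10.87, a change of -0.52 (SE 0.06, adjusted p = 0.000302). This left it at 69.6% of the DMSO level, the lowest share among the import receptors.

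Further receptors of ribosomal protein and histone cargo were Ipo4, Ipo7 and Ipo9. Ipo4 changed by -0.40 (SE 0.06), from 9.74 ± 0.04 (SD, n = 3) to 9.33 ± 0.06, and Ipo7 by -0.39 (SE 0.07), from 10.99 ± 0.03 to 10.60 ± 0.08. Ipo9 had all treated arrays below the controls, at 10.64 ± 0.04 and 10.47 ± 0.05, and did not pass at -0.18 (95% interval -0.32 to -0.04, adjusted p = 0.0675). Ipo11, which imports ubiquitin-conjugating enzymes, read 9.55, 9.57 and 9.39 against 9.22, 9.28 and 9.20, a change of -0.27 (SE 0.07, adjusted p = 0.0179). The call of Ipo11 failed at adjusted p of 0.0747 and 0.0766 when DMSO replicate 1 or 2 was dropped, and its adjusted p lay between 0.00263 and 0.0766 over 16 alternatives. Tnpo1, the transportin of RNA-binding proteins, changed by -0.33 (SE 0.07), while Tnpo3, which imports splicing factors of the SR family, had -0.17 (adjusted p = 0.127). Tnpo3 had DMSO values of 10.89, 10.80 and 10.67 and TKI258 values of 10.64, 10.63 and 10.60, and DMSO replicate 3 reached almost to the treated arrays.

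Ipo13, which both imports cargo such as exon junction proteins and exports a translation initiation factor, was the only member that rose. It read 8.41, 8.32 and 8.39 under DMSO and 8.76, 8.86 and 8.84 under TKI258, so every treated array was above every control array by at least 0.35. The change was 0.44 (SE 0.06, 95% interval 0.30 to 0.59, adjusted p = 0.000804), or 136% of the DMSO level. Its adjusted p stayed between 5.10e-05 and 0.00723 over its 16 alternatives. Tnpo2 was the only other member with a change above 0, at 0.09 (95% interval -0.05 to 0.23, adjusted p = 0.369), and Ipo8 lay at -0.03 (95% interval -0.19 to 0.13, adjusted p = 0.823).

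Of the 6 exportin genes 5 fell, and in all 6 the treated arrays lay below the controls. Xpo1, the exportin of leucine-rich export signals, read 11.21, 11.21 and 11.08 under DMSO and 10.80, 10.67 and 10.56 under TKI258, a change of -0.49 (SE 0.08, adjusted p = 0.00155). Xpot, which exports tRNA, read 10.21, 10.22 and 10.12 against 9.66, 9.81 and 9.79, a change of -0.43 (SE 0.07, adjusted p = 0.00137). Xpo5, which exports precursors of miRNAs, read 9.72, 9.56 and 9.50 against 9.08, 9.19 and 8.99, a change of -0.51 (SE 0.08, adjusted p = 0.00155). These 3 exporters of different cargo had intervals that overlapped one another widely.

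Xpo4 had the lowest change and the widest error of the exportins. It read 9.42, 9.19 and 9.04 under DMSO and 8.67, 8.65 and 8.43 under TKI258, a change of -0.63 (SE 0.11, 95% interval -0.88 to -0.39, adjusted p = 0.00189). Xpo6, which exports actin, changed by -0.32 (SE 0.07, adjusted p = 0.0104), from 9.52 ± 0.04 (SD, n = 3) to 9.20 ± 0.11. Xpo7 did not pass, at -0.22 (95% interval -0.39 to -0.04, adjusted p = 0.0737), with 9.62, 9.63 and 9.53 against 9.49, 9.40 and 9.24. Without TKI258 replicate 1 the adjusted p of Xpo7 was 0.0382, and with arrays centred on their medians it was 0.0449.

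Several members have a close relative in the same family that differed in its call. Such calls alone do not show a difference, so the within-array difference was compared between groups for 5 pairs, picked after the values were seen. The smallest two-sided p that 3 against 3 arrays allow in an exact permutation test is 0.1. The change of Tnpo1 was below that of Tnpo2 by 0.42 on the log2 scale, with difference values of 1.36 to 1.54 under DMSO and 0.95 to 1.05 under TKI258 (exact permutation p = 0.1, 0.125 adjusted over the 5 pairs). Ipo7 against Ipo8 gave a difference of changes of -0.36 with SDs of 0.04 and 0.03 (n = 3 each, exact permutation p = 0.1). Kpna1 against Kpna6 gave -0.29 and Nup210 against Nup210l gave -0.40, each at the same exact p. In these 4 pairs the difference values of the groups did not overlap, and the p was the smallest the design can give. Nup210l was read here by the brightest of its 9 probe sets. With their mean it changed by -0.22 and passed in limma (adjusted p = 0.0234), so the call then no longer differed from that of Nup210. The pair was not tested with that mean. Kpna3 against Kpna4 gave -0.17 with overlapping values (exact permutation p = 0.3, adjusted 0.3).

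**Figure D3:**
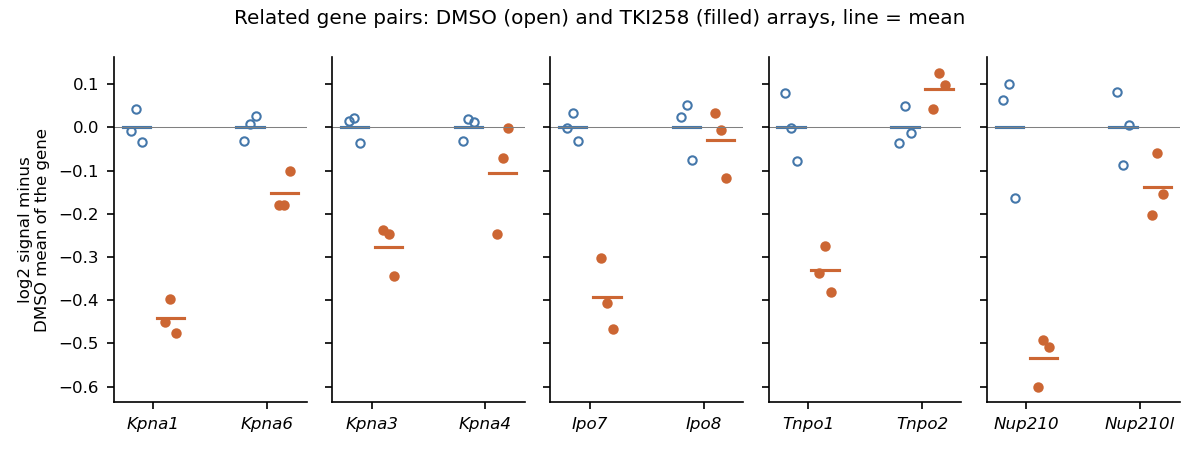
Log2 signal minus the gene's mean over the 3 DMSO arrays for 5 pairs of related genes, with open blue circles for DMSO arrays, filled orange circles for TKI258 arrays and a line at each mean. The first gene of each pair lies lower under TKI258, while the second lies nearer 0 and overlaps its control arrays in 4 of the 5 pairs, all but Kpna6.

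The other genes of the pathway, which the naming rule leaves out, were taken from a list by role. Of 53 measured, 27 fell and 3 rose, with a median log2 change of -0.25. That is 50.9% and 5.66%, against 12.6% and 14.4% of all genes. Of genes with a mean above 8 up to the brightest member, 28.4% fell. At an unadjusted p of 0.05 in limma, 3270 of all 19938 genes were lower and 3837 higher. Tpr, Nutf2 and Ddx19a were listed but not measured. Of 11 further nucleoporin genes 7 fell and 0 rose in limma (8 and 0 at an unadjusted p of 0.05). Ndc1, a membrane nucleoporin, changed by -0.72 (adjusted p = 4.11e-05), from 9.77 ± 0.04 to 9.05 ± 0.03. Nupl1, the channel partner of Nup54 and Nup62, changed by -0.51 and Aaas by -0.47. Ran itself changed by -0.38 (adjusted p = 0.00263), and 4 of 6 Ran cycle genes fell and 0 rose in limma (5 and 0 at an unadjusted p of 0.05). Rcc1, which charges Ran with GTP on chromatin, had the lowest change of all genes on either list, -0.86 (SE 0.06, adjusted p = 2.03e-05). Rangap1, which triggers GTP hydrolysis by Ran in the cytoplasm, changed by -0.48 and its helper Ranbp1 by -0.49. Cse1l, which returns importin alpha to the cytoplasm, changed by -0.39 (adjusted p = 0.00103).

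Of 18 mRNA export genes 7 fell and 1 rose, which is 38.9% and 5.56%. Ddx19b, which fell, and Alyref2, Mcm3ap, Nxf2 and Nxf7, which did not pass, had means below 8. The 28.4% lower of bright genes is therefore not a like share for this list. The general mRNA export receptor Nxf1 and its partner Nxt1 changed by -0.38 and -0.42, and the THO subunit Thoc3 by -0.37, while Nxt2 rose by 0.21 (adjusted p = 0.0476). Of 4 other transport factors only Nmd3, the adaptor for export of the large ribosomal subunit, fell, by 0.41. Of 13 lamina and nuclear envelope genes 7 fell and 2 rose, which is 53.8% and 15.4%, against 12.6% and 14.4% of all genes. The lamin genes Lmna, Lmnb1 and Lmnb2 changed by -0.56, -0.57 and -0.54. The risers were Syne2 at 0.78 and Sun2 at 0.24, which encode proteins that link the envelope to the cytoskeleton. Of their relatives, Syne1 fell in limma, at -0.47 (adjusted p = 0.0096), and Sun1 did not pass, at 0.07 (adjusted p = 0.487). The calls of Nxt2 and Sun2 were marginal. That of Nxt2 was lost when any array but TKI258 replicate 1 was left out and that of Sun2 when any but TKI258 replicate 2 was, with adjusted p of up to 0.138 and 0.114 in these fits, while Syne2 passed in all 6 of them. With the replicate number as a block the adjusted p of Nxt2 was 0.0566, so 2 of these genes passed as higher there.

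**Figure D4:**
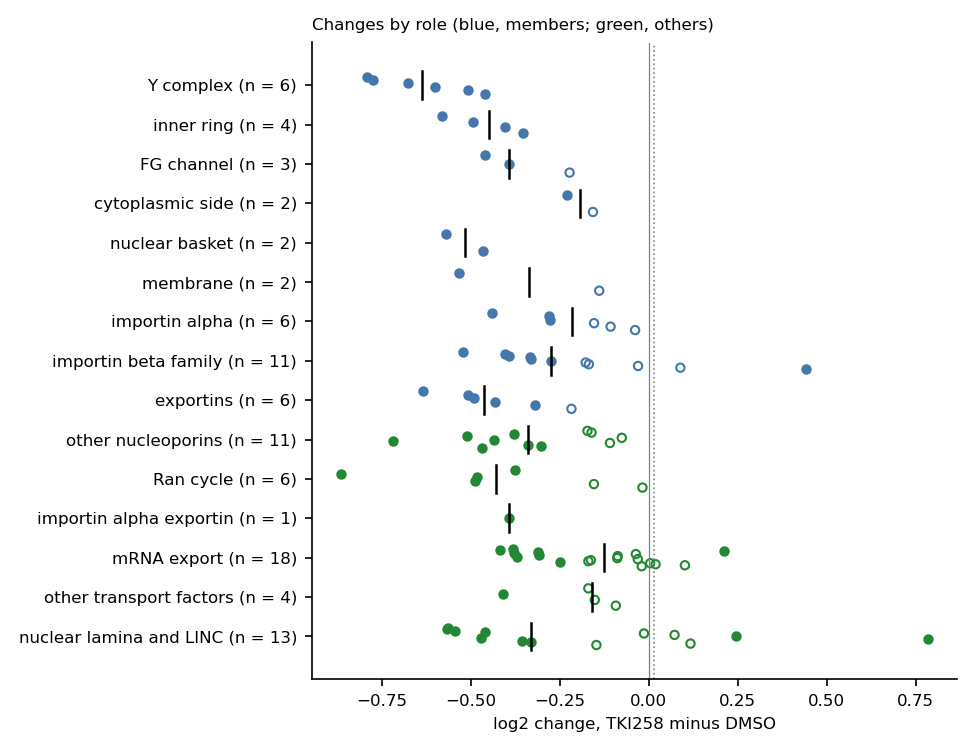
Log2 change of each gene by role, with blue for the named families and green for other genes of the pathway; filled points passed at an adjusted p of 0.05 in limma, open points did not, black bars are medians and the dotted line is the median of all genes at 0.01. The median of the 6 Y complex members lies at -0.64 and that of importin alpha at -0.21.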

How the data were processed

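The data are 6 arrays of 4T1 cells, 3 given DMSO and 3 given TKI258, grouped by their titles, with separate dishes as replicates. The deposited table gives a log2 signal for each of 35557 probe sets on each array. The submitters' processing notes name limma, affy and RMA and give no version or role. That the values are log2 was inferred from their range. RMA usually equalises array distributions, which would hide a change common to all genes, and it shrinks changes of dim probe sets. No detection calls were given, and precision is limited by the number of arrays.

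Gene symbols came from a platform annotation of 2016, in which 21789 probe sets had 1 symbol. Each gene was read by its brightest such probe set. The comparison used limma 3.58.1 (R 4.3.3), lmFit followed by eBayes, over all 19938 genes, treatment as the only term, two-sided p, Benjamini-Hochberg adjustment and a threshold of 0.05, with no filter. SE and 95% intervals are those of this fit, n = 3 per group. The fit was tested on simulated data. The members, the lists and the tests were chosen with earlier results of these data known. Array values are given for the 2 members per role with the smallest adjusted p, all importin alpha genes, Kpnb1, Xpo1 and genes that rose; further ones, and the related pairs, were chosen after their values were seen. Companion genes are named for at most 3 per list by adjusted p, with Ran, Cse1l and those that rose. Sec13, Seh1l, Ahctf1, Ranbp2, Nupl2, Gle1, Rae1, Syne1 and Sun1 were named after their values were seen. A planned comparison of protein sequences was not run, and proteins were not used here. The labels do not say that same-numbered dishes belong together, so the numbers were not taken as pairs. Deviations from group means of same-numbered arrays correlated at 0.02, 0.05 and 0.15. Only for replicate 3 was the same-numbered array the best match. The alternatives were single arrays left out, the replicate number as a block, renewed quantile normalization, median centring, a filter at a mean of 5, other probe set choices, other variance models, a threshold of 0.01 and, added after seeing the data, probe sets tested singly.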

Additional observations from a re-analysis of the deposited data

How the results depend on the processing

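Ranges here cover the 16 alternatives. Of the 31 members that passed, 25 passed in every one of them, and those lost in at least 1 were Nup88, Nup155, Ipo11, Kpna2, Kpna3 and Xpo6, the last 3 only at a threshold of 0.01. The count of members lower was 24 at that threshold, 35 with trended and robust variances, 29 with renewed quantile normalization, 31 with median centring, 33 without dim genes and 28 when every probe set was tested singly, which was added after seeing the data. Leaving out 1 array gave 27 to 31, and 1 member was higher in each. The members' median log2 change was -0.39 to -0.34 with 1 array left out and -0.34 with renewed quantile normalization. Companion genes that rose numbered 1 to 2 with 1 array left out, 1 with median centring, 1 at the threshold of 0.01 and 0 with unmoderated variances in limma's linear fit. The causes were not tested. The sign of Ipo8 turned to 0.0069 with renewed quantile normalization, and with 1 array left out Ipo8 ranged from -0.067 to 0.014 and Nup62cl from -0.11 to 0.083; neither passed in any setting. With the replicate number as a block 30 members were lower and 1 higher, all of the 31 calls were kept, and the block changed no member's call. Among companion genes the block ended the call of Nxt2, leaving 2 higher, and 27 were lower. No probe set has a background measure in the table, so how far Kpna7, Nup62cl and Nup210l, the dimmest members, lie above background is not known.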
